A study of Mus musculus with 4 samples.

Results

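The proteasome genes of mouse stem and progenitor cells were described across 4 genotypes. Members were all gene symbols beginning with Psma, Psmb, Psmc, Psmd, Psme, Psmf or Psmg that reached at least 10 CPM, the counts of unique molecular identifiers (UMIs) scaled to a library total of 1000000, in any library. Of 32285 genes in the files, 50 symbols carried these prefixes and 47 reached that level, which 8536 genes reached in all. The prefix also took Psmc3ip, a meiotic recombination factor that is no part of the proteasome, so 46 proteasome genes were described: 5 immunoproteasome genes (Psmb8, Psmb9, Psmb10, Psme1 and Psme2) and 41 others. The 3 symbols below 10 CPM in every library were Psma8, the alpha subunit of the testis proteasome, Psmb11, the catalytic subunit of the thymus proteasome, and Psme2b, a copy of Psme2.

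The libraries were single-cell RNA libraries of LSK cells (lineage-negative, Sca-1+ Kit+), the bone marrow fraction that holds stem cells and early progenitors. Cells were pooled from 5 mice of 8 to 12 weeks for each genotype. The Ikk2CA library carried 1 floxed copy of a constitutively active Ikk2 (S177E, S181E) placed in the Rosa26 locus, the Jak2V617F library 1 floxed copy of the activating V617F allele of the Jak2 kinase, and the double mutant library both. The control library carried Vav1-iCre alone, and all 4 carried this recombinase, which is active throughout blood formation. According to the design text the crosses also included an NF-κB EGFP reporter, and the sample labels do not say which pools carried it. There was 1 library for each genotype, so no test across genotypes was possible, every ratio describes these libraries, and the intervals (95%) cover counting error of UMIs only.

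The proteasome is the barrel-shaped protease that degrades ubiquitin-tagged proteins. Its 20S core is built of alpha and beta rings, with 3 proteolytic beta subunits, and is opened by the 19S cap, whose ATPases unfold the substrate. In cells of the blood and immune system, and in other cells under interferon, the proteolytic subunits Psmb5, Psmb6 and Psmb7 can be replaced by Psmb8, Psmb9 and Psmb10, which makes the immunoproteasome, a main source of peptides for MHC class I. Psme1 and Psme2 form PA28, a ring that opens the core without ubiquitin or ATP and is likewise induced by interferon gamma.

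The authors' filter on cells left 37344 of 41674 barcodes, 9865 in the Ikk2CA, 14156 in the Jak2V617F, 5268 in the double mutant and 8055 in the control library. Median depth per cell was 17726 UMIs in Ikk2CA, 11106.5 in Jak2V617F, 24915 in the double mutant and 10606 in control cells. Pairs of libraries shared 12 to 60 barcodes. The alleles could not be checked from these counts, since 3′ tags do not read the changed bases: Ikbkb, which encodes Ikk2, stood at 53.9, 67.3, 51.5 and 58.4 CPM in Ikk2CA, Jak2V617F, double mutant and control cells, and Jak2 at 15.6, 18.03, 11.6 and 19.8 CPM. The sort markers Kit (87.6, 175, 93.5 and 149 CPM) and Ly6a, which encodes Sca-1 (233, 138, 191 and 106 CPM), were present in all 4. The pools differed in sex: Xist, which marks female cells, stood at 250.2, 0.257, 319.8 and 1176 CPM in the same order. The median gene stood at a log2 ratio of -0.23 in Ikk2CA over control, -0.01 in Jak2V617F over control and -0.24 in the double mutant over control, whereas among the 1581 genes with at least 100 CPM in any library the medians were 0.02, 0.02 and 0.04. Changes are therefore set beside that of the median gene. Scaling by TMM factors instead of library totals would add 0.24, 0.02 and 0.22 to every log2 ratio in these 3 comparisons, so that in Ikk2CA over control all but Psme4 and Psmd5 of the proteasome genes described as lower would lie above 0.

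Psmb8 and Psmb9 lie in the MHC region of chromosome 17 (mm10), each beside a subunit of the peptide transporter TAP: Psmb9 (chr17:34181987-34187764, minus strand), Tap1 (chr17:34187553-34197225, plus strand), Psmb8 (chr17:34197721-34201454, plus strand) and Tap2 (chr17:34203527-34216321, plus strand). Psme1 (chr14:55578123-55581529, plus strand) and Psme2 (chr14:55587441-55591113, minus strand) are neighbours on chromosome 14, and Psmb10 (chr8:105935735-105938444, minus strand) lies apart. These positions are from GENCODE, by which Psmb9 and Tap1 overlap on opposite strands. All starts named below are RefSeq starts, which for Psmb8 and Psme1 lie inside the GENCODE gene. The RefSeq starts of Psmb9 and Tap1 are divergent, with 225 bases between them, so that 1 stretch of DNA is the proximal promoter of both genes. RefSeq promoter windows of 300 bases, from 250 before to 50 after the start, were found for 39 of the 46 proteasome genes and searched on both strands. The 3 stretches shown here, all from the plus strand of mm10, hold 1 match each at genes of the immunoproteasome, with the match in capitals: a GC box (GGGCGG) between the starts of Psmb9 and Tap1 (chr17:34187368-34187397), an interferon-stimulated response element (ISRE, searched as GAAA, 2 bases of any kind and GAAA) beginning 9 bases after the start of Psme1 (chr14:55578493-55578522), and an interferon-gamma-activated site (GAS, searched as TTCNNNGAA) 97 bases before the start of Psmb8 (chr17:34198088-34198117).
Psmb9-Tap1: cagactgaggccCCGCCCcatcatcgcgca
Psme1: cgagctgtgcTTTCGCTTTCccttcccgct
Psmb8: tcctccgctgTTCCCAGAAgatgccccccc
Not shown are GC boxes in the windows of Psme1 and Psme2 and a CCAAT box between the starts of Psmb9 and Tap1. A GC box was in 35.7% of all 32851 windows, an ISRE in 3.44%, a GAS in 8.30%, a CCAAT box in 37.4% and an NF-κB motif in 8.46%. Members were counted by gene, with a match in any of the gene's windows, so their counts and the shares of windows are not on the same base. Among the 39 members with a window, 23 held a GC box, 13 a CCAAT box, 5 an ISRE (Psmb3, Psmd4, Psmd9, Psme1 and Psmg4), 3 a GAS (Psmb8, Psmd2 and Psmg1) and 6 an NF-κB motif. None of these last 6 was an immunoproteasome gene. A match is a description of letters in a window and not evidence of binding.

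All 5 immunoproteasome genes were higher in Ikk2CA than in control cells, with a median log2 ratio of 0.38, against 0.14 for the 41 other members and -0.23 for all 8536 genes. Psme2, the beta subunit of PA28, had 239 CPM in Ikk2CA cells and 149 CPM in control cells, a ratio of 1.61 (1.58 to 1.63). It was the only member of the 46 at least 1.5-fold higher, a size that 3.96% of all genes reached; 1.5-fold lower was reached by none of the 46 and by 16.7% of all genes, and 20.7% of all genes passed in either direction. With TMM factors 6 of the 46 passed, and with median-of-ratios factors or relative to the median gene 5. The shares of all genes at 1.5-fold are by library total and were not counted under these alternatives. Psme2b, the copy of Psme2, was at 2.99 CPM in Ikk2CA and 2.74 CPM in control cells. How reads shared by the copies were assigned was not tested. Psme1, the alpha subunit of PA28, had 533 CPM in Ikk2CA and 409.8 CPM in control cells. The gene Emc9 overlaps Psme1 on the opposite strand, and how its reads were assigned is not given in the sources used here.

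The immunoproteasome proteases differed less than Psme2, and Psmb9 about as much as Psme1, whose log2 ratio was 0.38. Psmb9 had 354 CPM in Ikk2CA and 272 CPM in control cells (ratio 1.30, 1.29 to 1.32), Psmb10 194 and 157 CPM (1.23, 1.21 to 1.26), and Psmb8 705 and 605 CPM (1.17, 1.15 to 1.18). Each was above the control level by more than its counting interval and under the 1.5-fold line. Their constitutive counterparts were higher too: Psmb6 at 293 CPM in Ikk2CA and 231 CPM in control cells, Psmb5 at 272 and 235 CPM, and Psmb7 at 132 and 119.9 CPM. The log2 ratios of these 3, which were 0.34, 0.21 and 0.14, overlapped those of Psmb9, Psmb10 and Psmb8, which were 0.38, 0.30 and 0.22.

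**Figure D1:**
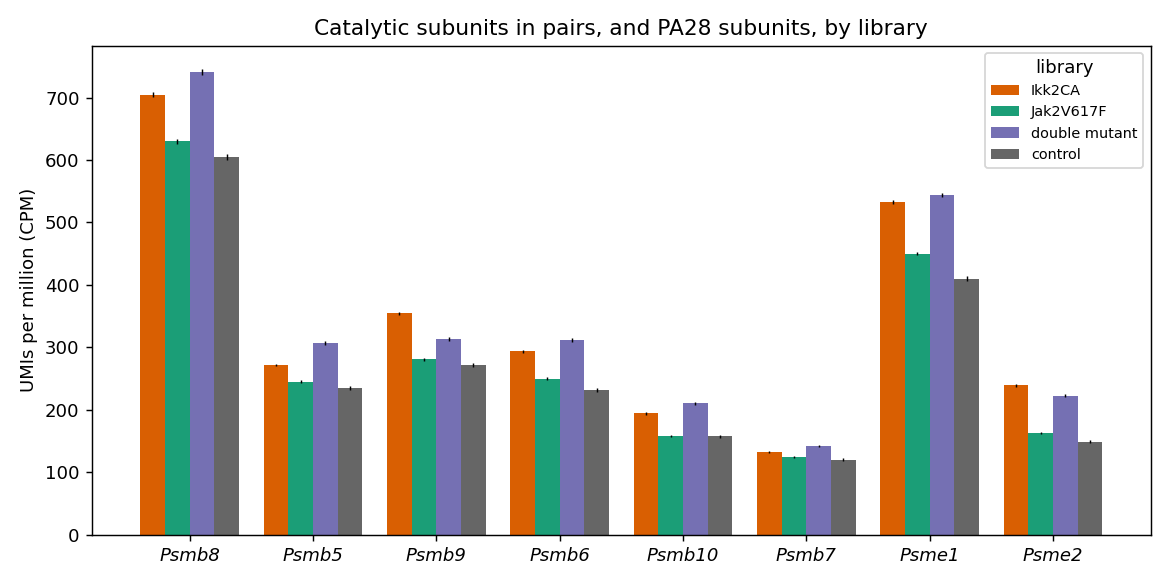
Level (CPM) of the catalytic subunits, each immunoproteasome gene beside the constitutive gene it replaces, and of the PA28 subunits Psme1 and Psme2, in the Ikk2CA, Jak2V617F, double mutant and control libraries (1 library each; bars from 0, error bars 95% Poisson counting intervals). The Ikk2CA and double mutant bars stand above the Jak2V617F and control bars for all 8 genes, and Psme2 has 239 CPM in Ikk2CA against 149 CPM in control cells.

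The other parts of the core moved alike in size. Of the 7 alpha ring subunits 6 were above the control level in Ikk2CA cells, with a median log2 ratio of 0.14. Psma7 was the highest, with 564 CPM in Ikk2CA and 423 CPM in control cells. Psma1 was the exception, with 225 and 229.8 CPM. All 4 structural beta subunits (Psmb1 to Psmb4) were above the control level, led by Psmb3 with 330.0 CPM in Ikk2CA and 239 CPM in control cells. Psmb3 and Psma7, at log2 ratios of 0.47 and 0.42, stood higher than Psmb9, so the immunoproteasome genes did not all rank above the other members.

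The 19S cap was mixed. Of its 6 ATPases 4 were above the control level in Ikk2CA cells (median log2 ratio 0.16), while Psmc6 had 121 CPM in Ikk2CA and 133 CPM in control cells and Psmc1 65.2 and 69.2 CPM. Of its 11 other subunits 7 were above it (median 0.09), and the lowest was Psmd2, a scaffold that receives ubiquitin-bearing substrates, with 90.9 CPM in Ikk2CA and 100.7 CPM in control cells. The 19S assembly chaperones were lower or level: Psmd5 had 32.8 CPM in Ikk2CA and 40.6 CPM in control cells, Psmd10 (gankyrin) 37.4 and 40.3 CPM, and Psmd9 47.2 and 45.7 CPM. Psmd10 is on the X chromosome, and the pools differed in sex. Of the chaperones of core assembly, Psmg2, Psmg3 and Psmg4 had log2 ratios of 0.18, 0.26 and 0.24, and Psmg1 had -0.07.

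The regulators that open or block the core by other routes did not share the direction of PA28. Psme4 (PA200), an activator known for work on histones in the nucleus, was the lowest member, with 15.8 CPM in Ikk2CA cells, 24.75 CPM in Jak2V617F cells, 16.3 CPM in double mutant cells and 22.8 CPM in control cells. The level was low in both libraries with the Ikk2CA allele and higher in both libraries without it. Its log2 ratio in Ikk2CA over control was -0.53 (-0.61 to -0.45), where the median gene stood at -0.23, and -0.28 with TMM factors. Psme3, the nuclear PA28 gamma, had 45.3 CPM in Ikk2CA and 46.25 CPM in control cells, and the inhibitor Psmf1 had 22.1 and 24.2 CPM.

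Counted over the 46 genes, 33 were above the control level in Ikk2CA cells, as were 26.4% of all genes, and 44 were above the median gene. Relative to the median gene 33 were at least 1.2-fold higher, against 23.9% of all genes. At least 1.2-fold higher were 12 of the 46 (4 of the 5 immunoproteasome genes and 8 of the 41 others), against 9.57% of all genes; at least 1.2-fold lower were 2, against 46.6% of all genes. Among all genes with at least 100 CPM in any library, to which 34 of the 46 belong, 51.9% were above the control level and 21.6% at least 1.2-fold higher, so the median of all genes, most of them at lower levels, lay further down than that of genes at the members' levels. The 46 genes together made up 8879 CPM in the Ikk2CA library and 7659 CPM in the control library, of which the 5 immunoproteasome genes were 2025 and 1593 CPM.

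**Figure D2:**
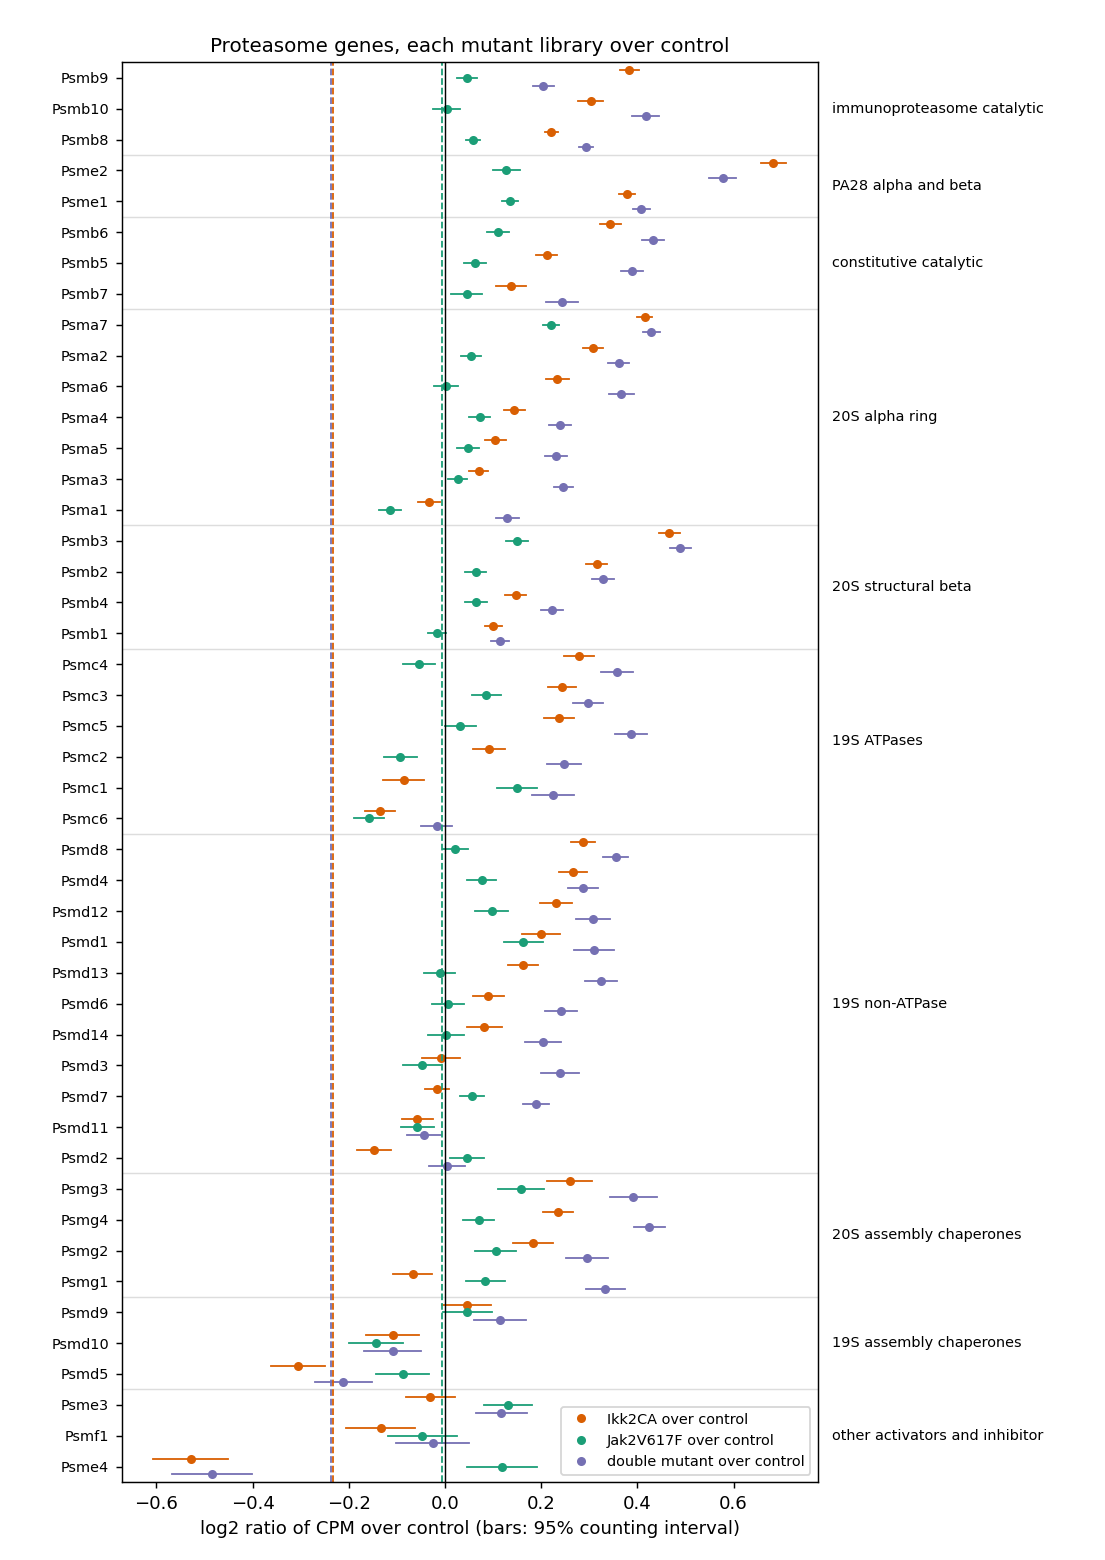
Log2 ratio of CPM over control for each of the 46 proteasome genes, grouped by role, for Ikk2CA, Jak2V617F and the double mutant (points, with 95% counting intervals as bars; solid line, no difference; dashed lines, median of all 8536 genes in each comparison). Psme2 is the rightmost gene in Ikk2CA and the double mutant, at 0.68 and 0.58, Psme4 the leftmost, at -0.53 and -0.48, and the Jak2V617F points lie between -0.16 and 0.22.

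Jak2V617F cells differed little from control cells in any proteasome gene. The median log2 ratio over control was 0.06 for the immunoproteasome genes and 0.05 for the 41 others, beside -0.01 for all genes. None of the 46 was 1.5-fold higher or lower, sizes reached by 1.14% and 1.75% of all genes (2.88% in either direction). None was 1.2-fold higher or lower, sizes reached by 7.91% and 10.1%, nor was any relative to the median gene, where 8.31% and 9.7% of all genes passed. Above the control level were 35 of the 46, as were 48.9% of all genes. Psme1 had 450.2 CPM in Jak2V617F and 409.8 CPM in control cells, Psme2 163 and 149 CPM, Psmb8 629.9 and 605 CPM, Psmb9 281 and 272 CPM, and Psmb10 158 and 157 CPM. The counting interval of Psmb10 held 1. The highest member was Psma7, with 493 CPM in Jak2V617F and 423 CPM in control cells, followed by Psmd1 and Psmg3, both at a log2 ratio of 0.16, and Psmb3 at 0.15. The lowest were Psmc6 with 118.9 CPM in Jak2V617F and 133 CPM in control cells, Psmd10, Psma1 and Psmc2, at log2 ratios of -0.16, -0.14, -0.11 and -0.09.

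In the double mutant the 5 immunoproteasome genes were again all above the control level, with a median log2 ratio of 0.41, and the 41 other members reached a median of 0.25, beside -0.24 for all genes. No member was 1.5-fold higher or lower, sizes reached by 2.32% and 16.0% of all genes (18.3% in either direction). With TMM factors 11 of the 46 passed, with median-of-ratios factors 13 and relative to the median gene 14. The shares of all genes at 1.5-fold were counted by library total only. Psme2 came just under 1.5-fold by library total, with 222 CPM in double mutant and 149 CPM in control cells (ratio 1.49, 1.46 to 1.52). At least 1.2-fold higher were 23 of the 46, against 8.94% of all genes, and 24.0% of the genes with at least 100 CPM; 1 member, Psme4, was 1.2-fold lower, against 47.0% of all genes. Above the control level were 40 of the 46, as were 26.7% of all genes, and 39 were at least 1.2-fold higher relative to the median gene, against 24.8%. Psmb10 had 210.1 CPM in double mutant and 157 CPM in control cells, Psmb8 741 and 605 CPM, Psme1 544 and 409.8 CPM, and Psmb9 313 and 272 CPM. After Psme2 the highest of the 46 were Psmb3 (335 CPM in double mutant and 239 CPM in control cells), Psmb6 (312 and 231 CPM), Psma7 (570.0 and 423 CPM) and Psmg4 (154 and 115 CPM). All 4 chaperones of core assembly passed 1.2-fold. Psmc3ip, outside the proteasome, had 47.8 CPM in double mutant and 35.2 CPM in control cells.

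Set directly against Ikk2CA cells, double mutant cells had more transcript of the constitutive genes but not of all immunoproteasome genes. All 41 other members had a log2 ratio above 0 in the double mutant over Ikk2CA (median 0.11), as did 55.0% of all genes, whose median was 0.02; for 6 of the 41 the interval held 1, and with TMM factors 37 of the 46 genes were above 0 in place of 44. None was 1.5-fold higher or lower, sizes that 2.0% and 3.95% of all genes reached (5.95% in either direction). Psmg1, a chaperone of the alpha ring, had 94.8 CPM in double mutant and 71.8 CPM in Ikk2CA cells, Psmc1 80.9 and 65.2 CPM, Psmd3 92.6 and 78.0 CPM, and Psmd7 213 and 184 CPM. Psmg1 and Psmc1 were the 2 members at least 1.2-fold higher, a size that 12.6% of all genes reached. Psmb9 was lower, with 313 CPM in double mutant and 354 CPM in Ikk2CA cells, a log2 ratio of -0.18, and so was Psme2, with 222 and 239 CPM and a log2 ratio of -0.11. By library totals these were the only members of the 46 below 0.

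Against Jak2V617F cells, double mutant cells had a median log2 ratio of 0.27 for the immunoproteasome genes and 0.21 for the others. The median was -0.22 for all genes and 0.07 for those with at least 100 CPM in any library. Psme4 was 1.5-fold lower (16.3 CPM in double mutant and 24.75 CPM in Jak2V617F cells), as were 15.2% of all genes, but with TMM factors it was not; 1.76% were 1.5-fold higher, and none of the members. At least 1.2-fold higher were 16 of the 46, against 7.45% of all genes and 19.3% of the genes with at least 100 CPM. Relative to the median gene 39 of the 46 were, against 24.4% of all genes. The highest members were Psme2 (222 CPM in double mutant and 163 CPM in Jak2V617F cells), Psmb10 (210.1 and 158 CPM), Psmc4 (141 and 106 CPM) and Psma6 (246 and 191 CPM). This comparison shares its double mutant library with the preceding one, and the comparisons over control share the control library.

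The departure from additivity, on the log2 scale, was the double mutant over control minus the sum of the ratios of both single mutants. Its median over the 46 genes was 0.07, with 32 above 0. Over all 8536 genes it was 0.02, with 4577 above 0. Over the 5 immunoproteasome genes it was -0.11, with 2 above 0. The most positive were Psmg1 and Psmd3, at 0.32 and 0.30, and the most negative were Psme2 and Psmb9, both at -0.23. Psmb10 was at 0.11.

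Within each pair of catalytic subunits, the immunoproteasome share of the UMIs was compared between libraries and gates. It was not read as the true ratio of the 2 transcripts, whose counts were not calibrated against each other, nor as protein makeup. Over the 3 pairs together the share was 64.3% in Ikk2CA, 63.3% in Jak2V617F, 62.4% in double mutant and 63.8% in control cells. The 4 libraries thus lay within 2 percentage points of each other, although transcripts of both kinds were higher in cells with the Ikk2CA allele. Psmb10 made up 59.5% of its pair with Psmb7 in Ikk2CA cells, 56.0% in Jak2V617F cells, 59.7% in double mutant cells and 56.7% in control cells. The share of Psmb9 in its pair with Psmb6 was 54.7%, 52.9%, 50.1% and 54.0% in the same order, lowest in the double mutant. Psmb8 ranged from 70.7% in the double mutant to 72.2% in Ikk2CA cells in its pair with Psmb5, with 72.0% in Jak2V617F and in control cells.

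To set the libraries side by side within cell types, each cell with at least 5000 UMIs was thinned to 5000 and put in a gate when it had at least 2 distinct markers of a lineage and more than of any other; 2750 shallower cells were left out. Levels within a gate were then taken from all UMIs of its cells. A sum over a whole library moves both with the cells it holds and with the RNA in each, and the gates had very different sizes. In Ikk2CA, Jak2V617F, double mutant and control cells the stem cell-like gate held 481, 2360, 538 and 1074 cells, the lymphoid-primed gate 1623, 3099, 799 and 2459, the granulocyte-monocyte gate 2616, 2586, 1543 and 1293, the megakaryocyte gate 636, 464, 458 and 209, the erythroid gate 320, 290, 56 and 192, and the B cell gate 1400, 71, 52 and 144. In whole libraries the 8 B cell markers summed to 1215, 82.5, 107 and 255 CPM, the 5 plasma cell markers to 4531, 212, 173 and 880.1 CPM and the 6 macrophage and dendritic markers to 1079, 365.5, 519 and 352 CPM, with no marker at 0. Without all cells of the B cell, granulocyte-monocyte, megakaryocyte, erythroid and plasmacytoid dendritic gates the immunoproteasome median log2 ratio was 0.34 in Ikk2CA and 0.40 in the double mutant over control.

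The 5 immunoproteasome genes summed to between 1884 and 2049 CPM in the 6 gates of Ikk2CA cells that could be compared, between 1334 and 1770 CPM in Jak2V617F cells, between 1830 and 2085 CPM in double mutant cells, and between 1040 and 1673 CPM in control cells. Their median log2 ratio over control was above 0 in all 6 gates for Ikk2CA (0.27 to 0.86) and for the double mutant (0.23 to 0.79), and in 5 of 6 for Jak2V617F (-0.05 to 0.32). In these gates the median of all genes, most of them at lower levels, lay between -0.21 and -0.15 for Ikk2CA. It lay between -0.23 and -0.13 for the double mutant. In whole libraries the genes with at least 100 CPM in any library had medians of 0.02 and 0.04 in these comparisons. Their medians were not taken by gate. In the stem cell-like gate the sum was 2007 CPM in Ikk2CA, 1567 CPM in Jak2V617F, 1929 CPM in double mutant and 1507 CPM in control cells. Psme2 was above the control level in all 6 gates of Ikk2CA cells, at log2 ratios of 0.55 in the stem cell-like, 0.65 in the lymphoid-primed, 0.56 in the granulocyte-monocyte, 0.55 in the megakaryocyte, 0.80 in the erythroid and 0.27 in the B cell gate. The lymphoid-primed gate differed in other markers. Its plasmacytoid dendritic list summed to 1340 CPM in Ikk2CA and 243 CPM in control cells. Its neutrophil list summed to 932 and 67.8 CPM, and its macrophage and dendritic list to 2113 and 553 CPM. The part of these cells or transcripts in the ratios was not tested.

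The 41 other members had a smaller median log2 ratio than the immunoproteasome genes in all 6 gates of Ikk2CA and of the double mutant over control. In Jak2V617F over control this was not so in every gate: it was 0.11 in the stem cell-like and 0.10 in the lymphoid-primed gate, where the immunoproteasome genes had 0.05 in both. The median of the 41 in Ikk2CA over control was 0.02 in the stem cell-like, 0.12 in the lymphoid-primed, 0.06 in the granulocyte-monocyte and 0.05 in the megakaryocyte gate, and it was below 0 in the B cell (-0.10) and erythroid (-0.13) gates. In the double mutant over control it was 0.23, 0.24, 0.20, 0.24, 0.07 and -0.06 in these 6 gates. In every library the 41 genes summed lowest in the stem cell-like gate, at 5554 CPM in Ikk2CA, 5669 CPM in Jak2V617F, 6255 CPM in double mutant and 5293 CPM in control cells, and highest in the erythroid gate, at 7791, 7686, 7997 and 8047 CPM.

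**Figure D3:**
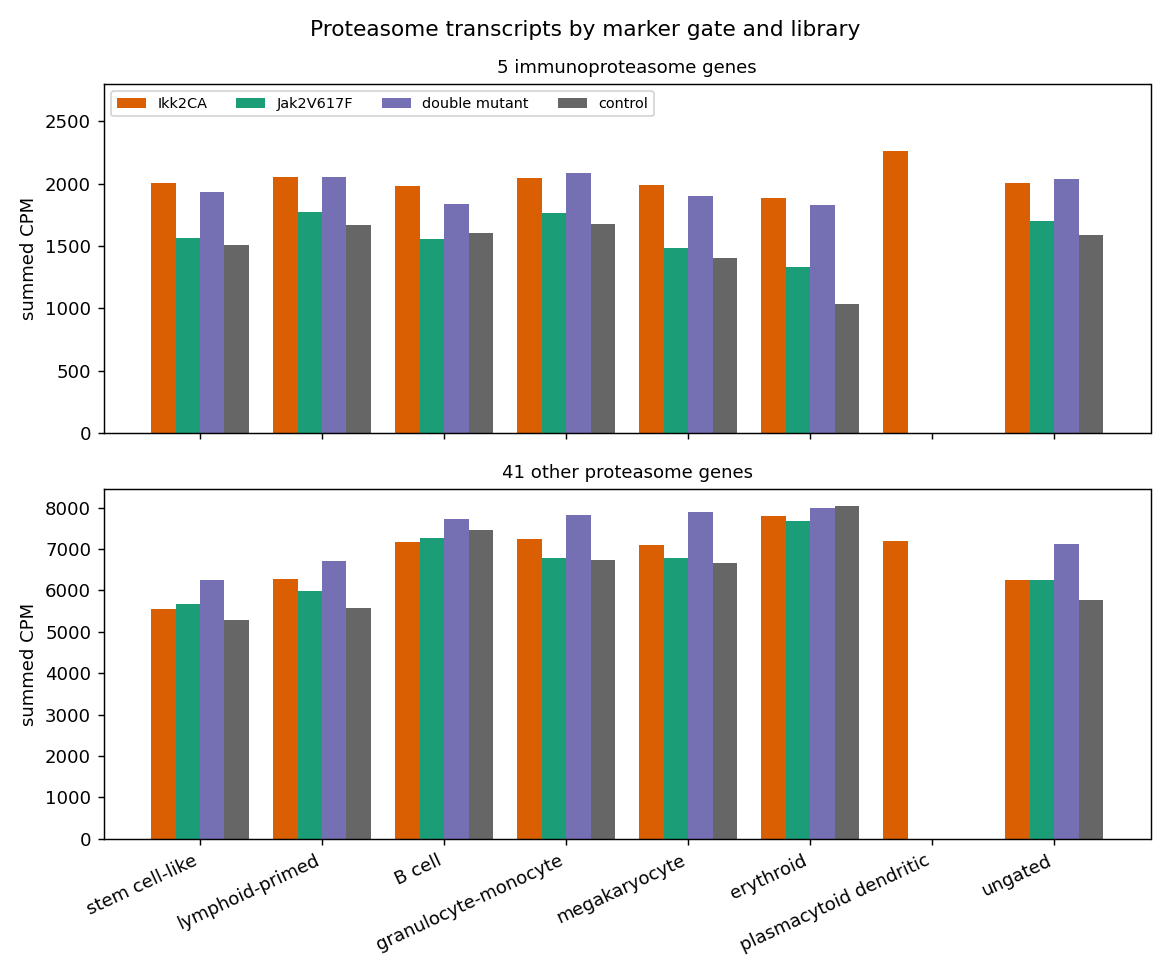
Summed level (CPM, bars from 0) of the 5 immunoproteasome genes (top) and the 41 other proteasome genes (bottom) in each marker gate and in ungated cells, for the Ikk2CA, Jak2V617F, double mutant and control libraries; gates under 50 cells are not drawn. In the erythroid gate the immunoproteasome genes sum to 1884, 1334, 1830 and 1040 CPM in that order, while the 41 others lie between 7686 and 8047 CPM.

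The erythroid gate, set by 8 markers of red cell precursors such as Car1, Klf1 and Gata1, showed the widest difference of the 6 gates in the immunoproteasome genes of Ikk2CA and double mutant over control. The 5 immunoproteasome genes summed to 1884 CPM in Ikk2CA, 1334 CPM in Jak2V617F, 1830 CPM in double mutant and 1040 CPM in control cells. Psmb10 had 234, 137, 189.9 and 109.6 CPM in these cells, and Psmb8 had 551, 419, 621 and 305 CPM. The immunoproteasome share over the 3 catalytic pairs was 60.3% (59.5 to 61.1) in Ikk2CA, 54.4% (53.4 to 55.4) in Jak2V617F, 58.6% (57.0 to 60.2) in double mutant and 44.9% (43.6 to 46.1) in control cells, where it was the lowest of any library and gate. The gate also differed in its markers: the erythroid list summed to 3332, 2616, 1886 and 4622 CPM in the same order, Car1 stood at 1950.1, 1467, 1133 and 2983 CPM and Hbb-bs at 7293, 1613, 3665 and 109 CPM. Genes of other lineages moved too, the megakaryocyte list at 437, 128, 1672 and 108 CPM and the macrophage and dendritic list at 393, 99.7, 242 and 52.3 CPM. The part of these in the difference was not tested.

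In the stem cell-like gate the share over the 3 pairs was 69.9% (69.0 to 70.8) in Ikk2CA, 64.0% in Jak2V617F, 64.7% in double mutant and 65.3% (64.6 to 66.0) in control cells. The Ikk2CA cells of this gate stood above the other libraries in each pair: Psmb8 at 77.1% against 73.1% in control cells, Psmb9 at 60.0% against 55.4%, and Psmb10 at 69.5% against 61.7%. The gate's macrophage and dendritic list summed to 1533, 416, 914 and 335 CPM in Ikk2CA, Jak2V617F, double mutant and control cells and its megakaryocyte list to 632, 106, 524 and 93.96 CPM, and the part of these cells or transcripts in the difference was not tested. In the granulocyte-monocyte gate the share lay between 61.7% in the double mutant and 62.9% in Ikk2CA cells. The plasmacytoid dendritic gate held 374 cells in Ikk2CA and 9 to 12 cells in the other libraries, too few to compare; its immunoproteasome sum of 2259 CPM was the highest of any gate.

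**Figure D4:**
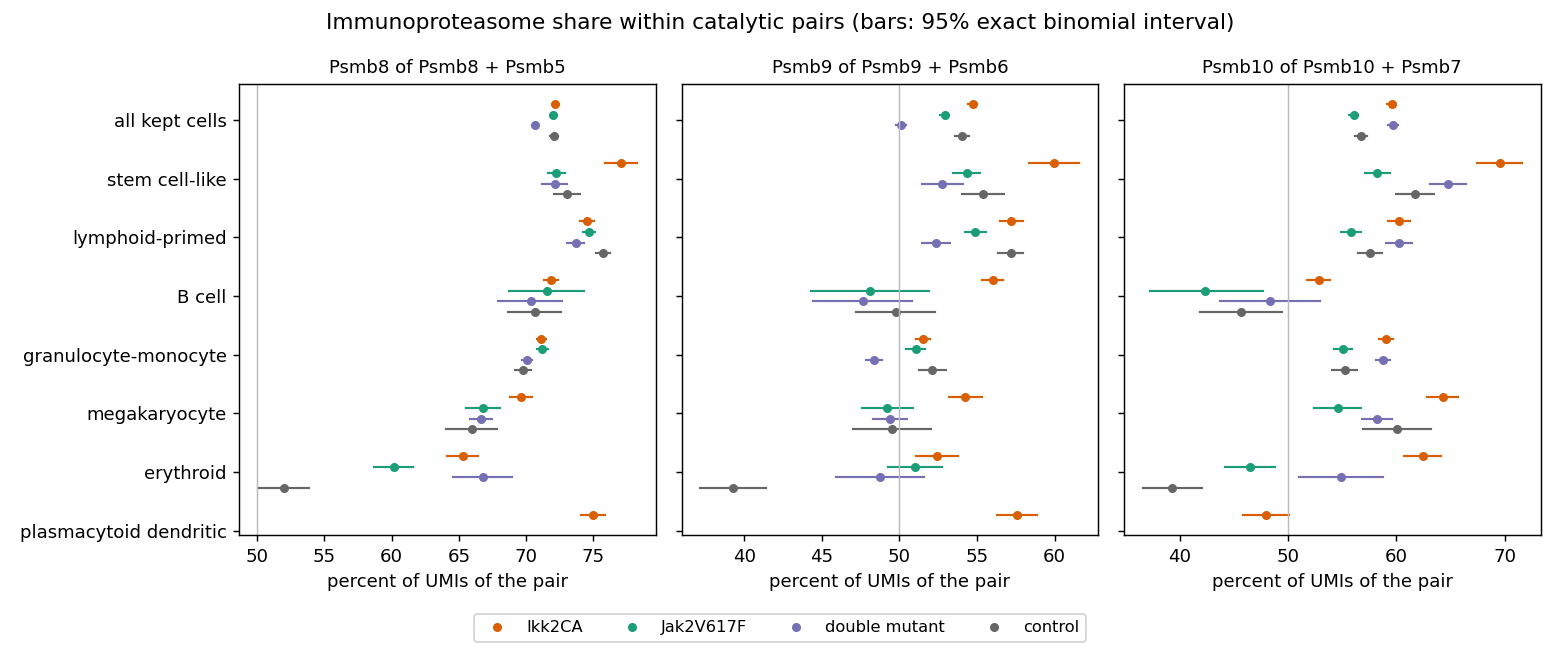
Percent of the UMIs of each catalytic pair that came from the immunoproteasome gene, in all kept cells and in each marker gate, for the Ikk2CA, Jak2V617F, double mutant and control libraries (points; bars, 95% exact binomial intervals; grey line, 50%). Ikk2CA is rightmost in the stem cell-like gate in all 3 panels, and control is leftmost in the erythroid gate in all 3, at 52.0% for Psmb8, 39.3% for Psmb9 and 39.3% for Psmb10.

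Members of the immunoproteasome differed from each other in direction between cycling and non-cycling cells. Cells with at least 2 cycling markers were 48.3% of the cells with at least 5000 UMIs in Ikk2CA, 44.7% in Jak2V617F, 45.3% in the double mutant and 35.5% in control. Cycling over non-cycling cells of the same library, the 41 other members had a median log2 ratio of 0.29 in Ikk2CA, 0.24 in Jak2V617F, 0.21 in double mutant and 0.27 in control cells, where all genes had medians of 0.02, -0.02, -0.02 and -0.02. Psmb9 was higher in cycling cells in all 4 libraries (0.26, 0.27, 0.20 and 0.23), and so were Psme2 (0.19, 0.21, 0.13 and 0.20) and Psmb8 (0.09, 0.10, 0.09 and 0.08). Psmb10 (-0.11, -0.09, -0.06 and -0.07) and Psme1 (-0.08, -0.08, -0.08 and -0.11) were lower in cycling cells in all 4. Cycling and non-cycling cells also differed in cell makeup. In control cells 21.2% of the stem cell-like gate and 84.7% of the B cell gate were cycling. The part of cell makeup in these ratios was not tested. Within non-cycling cells alone the immunoproteasome genes summed to 1973 CPM in Ikk2CA, 1639 CPM in Jak2V617F, 1989.5 CPM in double mutant and 1565 CPM in control cells.

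Per cell, at 5000 UMIs each, the median count over the 46 genes was 43 UMIs in Ikk2CA (quartiles 36 and 50), 37 in Jak2V617F (31 and 44), 45 in double mutant (37 and 52) and 36 in control cells (30 and 42). The 5 immunoproteasome genes gave a median of 10, 8, 10 and 8 UMIs. The quartile ranges of all 4 libraries overlapped.

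Genes that work with the proteasome did not move as a block. Of 19 proteasome partners compared, 3 were above the control level in Ikk2CA cells, with a median log2 ratio of -0.26, beside 26.4% and -0.23 for all genes; the median was -0.0018 in Jak2V617F and -0.22 in the double mutant. With TMM factors 9 of the 19 were above the control level in Ikk2CA. Adrm1, the ubiquitin receptor of the cap, had 55.8 CPM in Ikk2CA, 42.3 CPM in Jak2V617F, 47.4 CPM in double mutant and 30.5 CPM in control cells. Sem1, a small cap subunit, had 652, 444, 644 and 444 CPM, so that it was high in both libraries with the Ikk2CA allele. Zfand5, a factor that stimulates the 26S proteasome, had 85.6, 143, 88.7 and 153 CPM, and Ngly1, the glycanase that activates the proteasome gene regulator Nfe2l1, had 21.8, 25.7, 20.2 and 34.3 CPM. Uba6, an enzyme that activates ubiquitin, had 16.3, 27.5, 18.02 and 26.7 CPM.

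The genes that deliver proteasome peptides to MHC class I did not move together as the immunoproteasome genes did. Of 14 compared, 5 were above the control level in Ikk2CA (median log2 ratio -0.09), 3 in Jak2V617F (-0.06) and 5 in the double mutant (-0.15); with TMM factors 8, 4 and 9 were above it. Of all genes 26.4%, 48.9% and 26.7% were above the control level by library totals. Tap1 was named because it shares its promoter region with Psmb9. It had 98.0 CPM in Ikk2CA, 113 CPM in Jak2V617F, 96.6 CPM in double mutant and 122 CPM in control cells. Its log2 ratio in Ikk2CA over control was -0.32, where the median gene stood at -0.23 and Psmb9 at 0.38. TMM factors would add 0.24 to each of these. Tap2, beside Psmb8, had 88.4, 111, 103 and 141 CPM. The class I heavy chain gene H2-D1 was higher, with 1752 CPM in Ikk2CA, 983 CPM in Jak2V617F, 1509.6 CPM in double mutant and 1073 CPM in control cells. H2-T23, of the non-classical class I, was lower in all 3 mutants, with 161, 188.5, 170.2 and 255 CPM, and the peptide-trimming enzyme Erap1 had 31.9, 49.1, 39.1 and 44.8 CPM. Class I heavy chain genes have close copies, which makes their values uncertain.

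**Figure D5:**
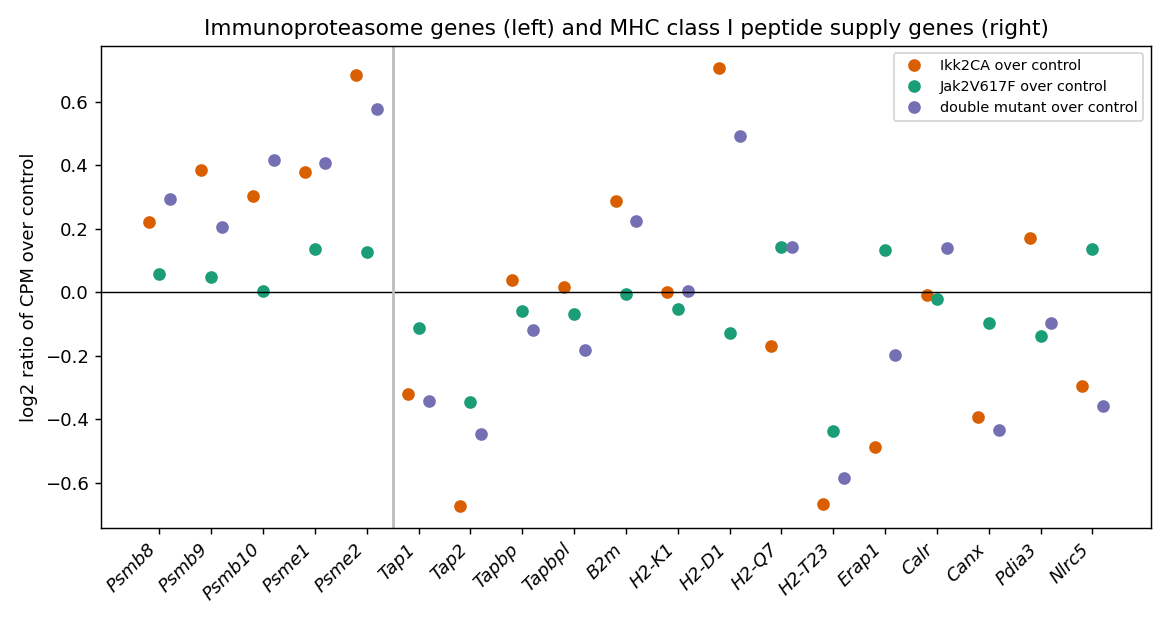
Log2 ratio of CPM over control (points) of the 5 immunoproteasome genes, left of the grey line, and of 14 genes of MHC class I peptide supply, right of it, for Ikk2CA, Jak2V617F and the double mutant over control. Psmb9 lies at 0.38 and its divergent neighbour Tap1 at -0.32 in Ikk2CA over control, and H2-D1 at 0.71. The median of all genes in that comparison, not drawn, was -0.23.

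Genes of the interferon-induced list were mostly below the control level in both libraries with the Ikk2CA allele. The part of interferon in these levels, or in those of the immunoproteasome genes, was not tested. Of 12 compared, 1 was above the control level in Ikk2CA and 7 were 1.5-fold lower (median log2 ratio -0.65); in the double mutant none was above it and 8 were 1.5-fold lower (median -0.79), and in Jak2V617F the median was -0.12. Of all genes 26.4% were above the control level and 16.7% were 1.5-fold lower in Ikk2CA, and 26.7% and 16.0% in the double mutant. The medians were also below 0 with TMM factors, at -0.41 in Ikk2CA, -0.57 in the double mutant and -0.10 in Jak2V617F. Ifit1 had 4.54 CPM in Ikk2CA, 14.2 CPM in Jak2V617F, 7.10 CPM in double mutant and 15.6 CPM in control cells, Ifi44 had 9.54, 20.3, 7.55 and 24.2 CPM, Rsad2 4.92, 14.7, 5.35 and 15.7 CPM, and Oasl2 16.9, 34.0, 19.998 and 35.4 CPM. Of 14 interferon and NF-κB regulators, 7 were above the control level in Ikk2CA (median log2 ratio -0.03), 6 in Jak2V617F (-0.06) and 4 in the double mutant (-0.23, with 4 at least 1.5-fold lower). Relb and Nfkb2, NF-κB subunits, were high in both libraries with the active Ikk2 allele: Relb had 34.85 CPM in Ikk2CA, 6.46 CPM in Jak2V617F, 28.9 CPM in double mutant and 6.31 CPM in control cells, and Nfkb2 had 27.5, 8.57, 19.998 and 7.64 CPM. Irf9, part of the interferon-activated factor that binds the ISRE, had 29.6, 43.7, 26.1 and 45.35 CPM. Irf8 had 229 CPM in Ikk2CA, 59.8 CPM in Jak2V617F, 47.3 CPM in double mutant and 84.2 CPM in control cells. Irf8 is also 1 of the 6 markers that set the plasmacytoid dendritic gate, which held 374 cells in Ikk2CA. The part of those cells in its level was not tested.

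Across 29 combinations of library and gate, the 5 immunoproteasome genes each followed the mean of the other 4, with Pearson r between 0.58 for Psmb10 and 0.83 for Psmb9, and did not follow the mean of the 41 other members (r between -0.32 and 0.34). Of 6234 candidate genes, those whose log2 CPM was most like the immunoproteasome mean were Son (r = 0.91), Cyba and Nfkbia (both 0.90), Rpl39 (0.88) and Ly6e (0.87). Nfkbia, which encodes an NF-κB inhibitor, had 325 CPM in Ikk2CA, 87.4 CPM in Jak2V617F, 252 CPM in double mutant and 69.9 CPM in control cells. In the same order Son had 371, 311, 357 and 276 CPM, and Cyba had 378, 184, 314 and 206 CPM. Rpl39 had 6039, 4454, 5762 and 4315 CPM, and Ly6e had 1464, 704, 1198 and 606 CPM. The cause of the likeness was not tested. The points share libraries and depths and are not independent, so no p is given.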

How the data were processed

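The deposited values are counts: whole UMIs per gene and barcode, not normalised, 1 matrix per library. The design text names Cell Ranger 3.0.1, the matrices come from Cell Ranger 4.0.0 per the file headers, and the submitters' processing notes name mm10 and Seurat 4.0.0. Barcodes with 500 to 7500 genes and under 10% mitochondrial UMIs were kept, as the design text states, and doublets were not called. UMIs were summed per library or gate and scaled to CPM with Python 3.11.15, numpy 2.4.6, scipy 1.17.1 and pandas 2.3.3. Library totals ran from 102362297 UMIs in control to 197836491 in Ikk2CA, so members have counting intervals of a few percent. Intervals are exact Poisson for a sum, exact conditional binomial for a ratio and Clopper-Pearson for a share, at 95%. A size of 1.5-fold was used for counts, with 1.2-fold and 2-fold as alternatives. The ratio and its interval were tested on simulated data. Factors from edgeR 4.0.16 (TMM) and DESeq2 1.42.0 (median of ratios) served as alternative scalings only. Gene positions are from GENCODE M21 and promoter windows from RefSeq (GRCm38.p6, the assembly of mm10). Members, role groups, markers and related lists were chosen with earlier results of these data known. Named were the catalytic, activator, inhibitor and core chaperone genes, the 4 highest and 4 lowest members of each comparison and up to 4 genes of each related list, of which 1 item is not reported here; Tap1 was added as the neighbour of Psmb9. Of 46 proteasome genes, 16 overlap another counted gene.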

Additional observations from a re-analysis of the deposited data

Results flagged for a closer look

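Of the 46 members, 8 had opposite directions for the Jak2V617F allele with and without the Ikk2CA allele, each with counting intervals clear of 1, and 4 had opposite directions for the Ikk2CA allele with and without Jak2V617F. With 1 library per genotype the difference was not tested for any of them. How many of all genes meet the same rule was not counted, so these counts have no background share. For Psmb9 the log2 ratio was -0.18 in the double mutant over Ikk2CA and 0.05 in Jak2V617F over control, a difference of -0.23, and for Psme2 it was -0.11 and 0.13, also a difference of -0.23. The 0.05 of Psmb9 was -0.021 as a mean over cells and -0.0025 without cycling cells, so that the directions were not opposite there. The other 6 went the opposite way, higher in the double mutant over Ikk2CA and lower in Jak2V617F over control, with differences of 0.28 for Psma1, 0.25 for Psmc2, 0.13 for Psmc4, 0.28 for Psmc6, 0.30 for Psmd3 and 0.18 for Psmd5. For the Ikk2CA allele the ratio was above 0 in the double mutant over Jak2V617F and below 0 in Ikk2CA over control, with differences of 0.28 for Psma1, 0.16 for Psmc1, 0.28 for Psmc6 and 0.32 for Psmg1. With TMM factors, which add 0.24 to every ratio in Ikk2CA over control, all 4 were above 0 in both, and the directions were no longer opposite. In Psma1 and Psmc6 both alleles showed this, and the difference has the same value for both.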

How the results depend on the processing

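No paired analysis was possible because each genotype has 1 library. With TMM and median-of-ratios factors and relative to the median gene, the members at least 1.5-fold higher or lower numbered 6, 5 and 5 in Ikk2CA over control (1 by library total), 11, 13 and 14 in the double mutant over control (0), and 3, 3 and 3 in the double mutant over Jak2V617F (1). At 1.2-fold these counts were 14, 24 and 17, and 2 in the double mutant over Ikk2CA; at 2-fold they were 0 in Ikk2CA over control and 0 in the double mutant over Jak2V617F. In the double mutant over control 1 member passed 1.5-fold in all deposited barcodes, as a mean over cells, in cells without an Xist UMI, without the deepest 5% of cells and without cycling cells. In the double mutant over Jak2V617F it was 0 as a mean over cells, without the deepest cells, without cycling cells and among genes with at least 50 CPM. The share of all genes at 1.5-fold was not counted under the alternative scalings.

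With TMM and median-of-ratios factors the median of the 41 other members was 0.38 and 0.37 in Ikk2CA, 0.47 and 0.47 in the double mutant over control and 0.41 and 0.42 over Jak2V617F, and that of the immunoproteasome genes 0.63 and 0.64 in the double mutant over control and 0.47 and 0.49 over Jak2V617F. In Jak2V617F over control the median of the 41 others was -0.00069 as a mean over cells, 0.075 without the deepest cells and 0.10 without the lineage gates, and Psmb9 was at -0.021 as a mean over cells and -0.0025 without cycling cells; the cause was not tested. The others' median in the double mutant was 0.22 over control with gates weighted as in control, 0.25 over Jak2V617F without cycling cells, and over Ikk2CA 0.15 in cells without Xist, 0.18 without cycling cells and 0.17 without the lineage gates.

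The immunoproteasome share over the 3 pairs in Ikk2CA, Jak2V617F, double mutant and control cells was 64.9%, 63.9%, 62.9% and 65.1% without the deepest cells, 66.3%, 64.9%, 63.8% and 65.7% without cycling cells, 66.6%, 64.4%, 63.7% and 66.0% without the lineage gates, 65.5%, 64.4%, 63.4% and 65.0% as a mean over cells and 65.9%, 63.7%, 63.3% and 64.5% with gates weighted as in control. In cells without an Xist UMI (75.7% of cells with at least 5000 UMIs in Ikk2CA, 99.6% in Jak2V617F, 70.9% in the double mutant and 41.5% in control) it was 64.5% in Ikk2CA, 62.1% in double mutant and 64.3% in control cells. Ikk2CA and control thus changed order without the deepest cells. Across 11 alternatives the immunoproteasome median stayed above 0 in Ikk2CA (0.34 to 0.62) and in the double mutant over control (0.36 to 0.64). Alternatives for Psme2, Psmb9 and Psme4, and ratios relative to the median gene, were chosen after seeing the data. The main limit is 1 pool per genotype, with genotype, sex, depth and cell makeup differing together.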
